A study of Mus musculus with 12 samples.

Results

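The step from LSK to common myeloid progenitors (CMP) was followed in mice that lack an enhancer of Cebpa. Bone marrow of C57BL/6 mice was sorted into LSK cells, which the labels also call hematopoietic stem cells, and CMP, and 3 libraries of each were sequenced from mice labelled Cebpa +42kb enhancer -/-. These 6 libraries, numbered 1, 2 and 7 in both cell types, are 6 of the 12 of the series and were chosen by genotype alone. The other 6 came from wild-type mice (CMP and LSK, numbered 1, 6 and 8) and enter only where the enhancer-null step is set against the wild-type step. All 12 share strain, tissue and protocol, and no drug or other allele is labelled. No age is given, and the labels do not say whether each library is 1 animal or a pool. What the p-values measure is thus only how far single libraries lie apart, which may be technical. Differences are log2 fold changes, CMP minus LSK, so that a value above 0 is higher in CMP. Levels are CPM, counts relative to the total assigned to genes, scaled by TMM over the 12 libraries.

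LSK cells carry Sca-1 and Kit but no lineage markers and are the marrow fraction that holds the stem cells and multipotent progenitors. CMP are Kit-positive cells that have lost Sca-1 and can give rise to granulocytes, monocytes, red cells and platelets. C/EBPα, the product of Cebpa, is a transcription factor that granulocyte and monocyte commitment requires. GATA1, KLF1 and GFI1B are factors of the red cell and platelet branches.

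The 6 libraries held 6170491 to 49149674 gene counts. CMP library 1 lay apart from the other 5 on the first principal component (43.3% of the variance) and CMP library 7 on the second (27.1%), while the 3 LSK libraries lay close together on both. Averaging 10 CPM or more were 9046 genes, of which 2.92% lacked any count in CMP library 1 and 1.14% in CMP library 7, against 0.0221% to 0.509% in the other 4. With every library thinned to 6170491 counts, 10458 genes had a count in CMP library 1, 11102 in CMP library 7 and 11620 to 13501 in the others. Values of the gene lists described are therefore also given without CMP library 1 or 7. The part of the missing genes of these libraries in the results was not tested. Y-linked genes had 3896, 7209 and 3 counts in CMP libraries 1, 2 and 7 and 4797, 1790 and 4 in the LSK libraries. Xist had 0, 36 and 7302 counts in CMP and 0, 4 and 23273 in LSK. By these counts libraries 1 and 2 were male and library 7 female in both cell types. In CMP library 7 sex cannot be told apart from other differences, and its part was not tested.

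Across all genes the step was large in single genes and uneven between the CMP libraries. Of 11323 genes tested with edgeR's quasi-likelihood test, 0 passed an adjusted p of 0.05 in either direction (0% of the genes tested), and the lowest adjusted p was 0.185. At an unadjusted p under 0.05 there were 784 genes (6.92%), 443 higher in CMP (3.91%) and 341 lower (3.01%). DESeq2 on the same counts called 102 higher (0.912% of 11185) and 100 lower (0.894%). A fit of all 12 libraries that shares 1 estimate of the spread called 17 higher (0.134% of 12684) and 20 lower (0.158%), and all 37 were among the DESeq2 calls. The 3 CMP libraries lay above the 3 LSK libraries without overlap for 948 genes (8.37%) and below them for 956 (8.44%). The biological coefficient of variation was 0.79. On simulated counts DESeq2 made far more false calls than edgeR, so its adjusted p-values and counts are given only as the second tool's values. Those counts were drawn gene by gene, without the missing genes of CMP libraries 1 and 7. There edgeR made 102 calls, against 0 here, so the simulation does not match these libraries in full. Since no gene passed the main test, the genes below are described by their values in each library, and none of them is a call of that test.

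Cebpa itself was close to the counting floor in all 6 libraries. It had 0, 3 and 0 counts in CMP libraries 1, 2 and 7 and 1, 0 and 15 counts in the LSK libraries, at most 0.297 CPM, and did not pass the filter on low counts. In the wild-type libraries its level was 17.0, 15.1 and 30.5 CPM in CMP and 6.41, 8.25 and 2.44 CPM in LSK. Every enhancer-null value lay under every wild-type value of both cell types, which is the check that the labels allow.

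Of the genes behind the sort, Ly6a followed the gates, while Kit, Fcgr2b and Il7r overlapped between CMP and LSK. Ly6a, which encodes Sca-1, was at 8.83, 12.9 and 0.186 CPM in CMP libraries 1, 2 and 7 and at 195, 192 and 141 CPM in the LSK libraries of the same numbers. The groups did not overlap, and the lowest CMP value was in library 7 (log2 fold change -4.61 ± 1.10 (SE), edgeR adjusted p = 0.382, DESeq2 adjusted p = 6.16e-05). Kit, on which both gates rest, was at 479, 555 and 722 CPM in CMP and 666, 795 and 648 CPM in LSK, with overlap between the groups (-0.29 ± 0.18, edgeR adjusted p = 0.851). Cd34, a surface marker of both early stem and progenitor cells, was at 468, 276 and 418 CPM in CMP and 973, 790.3 and 1035 CPM in LSK. Its lowest LSK library stood above its highest CMP library (-1.30 ± 0.21, adjusted p = 0.191 by edgeR, 1.79e-06 by DESeq2 and 0.0141 in the 12-library fit). The Fc receptor gene Fcgr3, by which CMP are parted from granulocyte and monocyte progenitors, was at 21.7, 19.3 and 18.7 CPM in CMP and 3.11, 8.62 and 3.72 CPM in LSK. The other Fc receptor gene, Fcgr2b, overlapped (0, 4.28 and 17.9 CPM against 22.0, 10.7 and 5.35 CPM), as did the interleukin 7 receptor gene Il7r (4.53, 7.67 and 29.6 CPM against 16.1, 19.2 and 9.21 CPM).

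**Figure D1:**
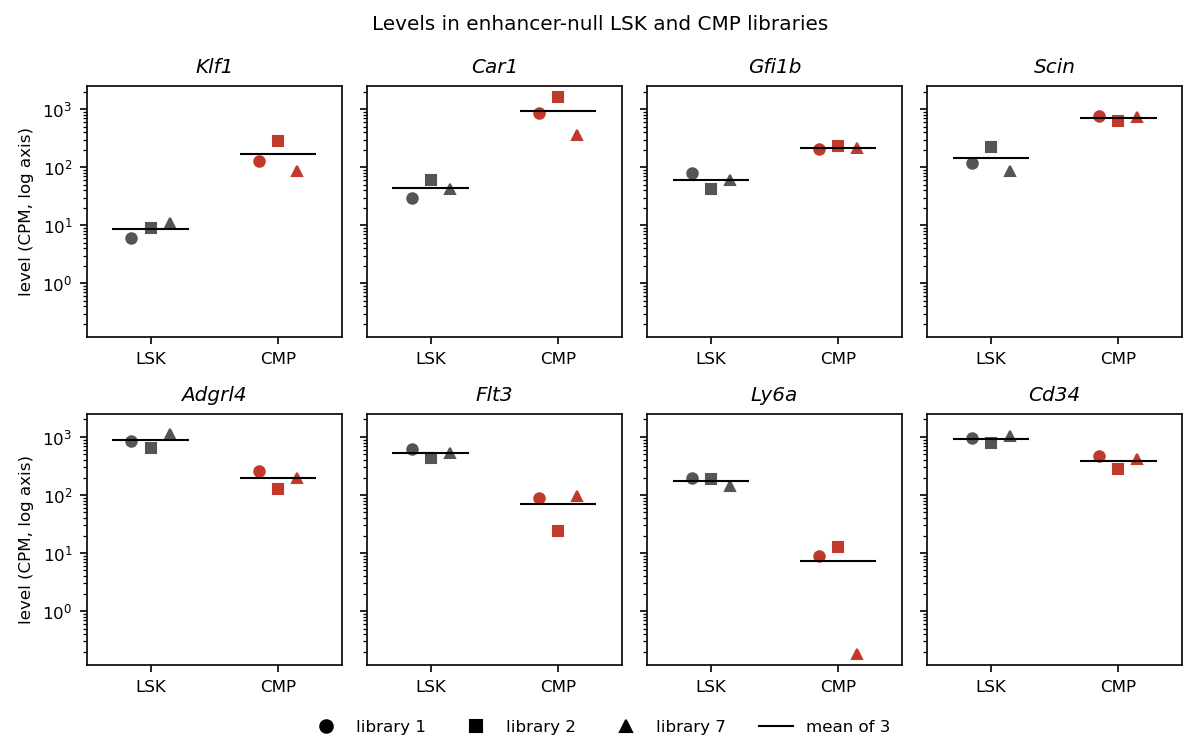
Level of 8 genes (CPM, log axis) in each enhancer-null library, LSK in grey and CMP in red. The symbol gives the library number and the bar the mean of 3 libraries. Klf1, Car1, Gfi1b and Scin lie higher in all 3 CMP libraries, and Adgrl4, Flt3, Ly6a and Cd34 lower, with Ly6a lowest in CMP library 7.

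Red cell regulators were higher in CMP. In RNA from sorted pools, more cells of a type and more RNA per cell cannot be told apart, which holds for every value here. Klf1, the erythroid Krüppel-like factor (chr8:84901928-84905291, plus strand, GRCm38), was at 129, 282 and 86.9 CPM in CMP libraries 1, 2 and 7 and at 6.14, 8.94 and 11.2 CPM in LSK. All CMP libraries lay above all LSK libraries, with the highest level in CMP library 2. The log2 fold change was 4.23 ± 0.54 (SE), the smallest p of all genes, with an adjusted p of 0.185 by edgeR, 2.18e-12 by DESeq2 and 0.0603 in the 12-library fit. Gfi1b, a repressor needed for red cell and platelet precursors (chr2:28609450-28621982, minus strand), was at 202, 230.0 and 216 CPM in CMP and 79.2, 42.0 and 59.9 CPM in LSK. Its 3 CMP libraries differed little from each other (216 ± 13.8 CPM, mean ± SD, n = 3, against 60.4 ± 18.6 CPM). The log2 fold change was 1.81 ± 0.28, with an adjusted p of 0.185 by edgeR, 2.81e-06 by DESeq2 and 0.0199 in the 12-library fit.

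Gata1, the master regulator of red cell genes, was at 105, 165 and 30.7 CPM in CMP and 2.50, 5.59 and 15.1 CPM in LSK. The groups did not overlap, although CMP library 7 stood at less than the other CMP libraries (3.67 ± 0.87, adjusted p = 0.375 by edgeR and 0.000527 by DESeq2). Nfia, a nuclear factor that favours the red cell over the granulocyte fate, was at 30.1, 69.4 and 69.0 CPM in CMP and 0.607, 6.55 and 5.25 CPM in LSK (3.75 ± 0.92, edgeR adjusted p = 0.403). Gata2, a factor of stem, mast and early red cells, was at 619, 373 and 184 CPM in CMP, highest in library 1, and 159, 174 and 162 CPM in LSK (1.22 ± 0.39, edgeR adjusted p = 0.573). For Tal1, Zfpm1 and Nfe2, partners of the GATA factors, the CMP libraries also lay above the LSK libraries, by smaller amounts (0.72, 0.89 and 0.39). Lmo2, the bridging protein of the same complex, lay the other way, at 175, 219 and 242 CPM in CMP and 345, 297 and 408 CPM in LSK (-0.74 ± 0.20, edgeR adjusted p = 0.446). Of 19 tested erythroid transcription factors, 15 had values above 0 and 4 below, with a median of 0.36 against -0.00719 over all genes tested. In 8 of the 19 the CMP libraries lay above the LSK libraries without overlap, against 8.37% of all genes tested, and in 1 below, against 8.44%. The split was 11 above 0 and 8 below without CMP library 1, with a median of 0.35, and 15 and 4 without CMP library 7.

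The bases before the start of 3 of the higher genes and of 1 lower gene are shown because the GATA factors bind a short word, and the regulators and red cell genes were higher together. They are from the RefSeq promoter table (GRCm38.p6), 5′ to 3′ on the gene's strand, and end before the first base of the gene model. Capitals mark the GATA word, AGATAA or TGATAA, searched on both strands (TTATCT and TTATCA on the other), where the matches can overlap no other word searched. Klf1 (chr8:84901732-84901927, plus strand), Gfi1b (chr2:28621983-28622232, minus strand) and Rhd, the Rh blood group gene (chr4:134864286-134864535, plus strand), each held 1, starting 80, 120 and 43 bases before the RefSeq start. These letters were not found in the window of Adgrl4 (chr3:151437632-151437881, plus strand). For Adgrl4 the bases after the RefSeq start did not match a transcript of the gene near its start, as they did for Klf1, Gfi1b and Rhd.
Klf1: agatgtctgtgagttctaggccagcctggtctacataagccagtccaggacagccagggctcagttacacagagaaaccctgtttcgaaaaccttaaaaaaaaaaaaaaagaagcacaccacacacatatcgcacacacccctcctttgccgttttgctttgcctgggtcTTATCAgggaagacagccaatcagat
Gfi1b: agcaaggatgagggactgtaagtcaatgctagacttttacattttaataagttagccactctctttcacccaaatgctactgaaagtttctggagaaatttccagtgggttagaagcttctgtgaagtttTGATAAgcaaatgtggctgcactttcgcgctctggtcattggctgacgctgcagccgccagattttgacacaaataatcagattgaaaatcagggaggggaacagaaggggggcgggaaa
Rhd: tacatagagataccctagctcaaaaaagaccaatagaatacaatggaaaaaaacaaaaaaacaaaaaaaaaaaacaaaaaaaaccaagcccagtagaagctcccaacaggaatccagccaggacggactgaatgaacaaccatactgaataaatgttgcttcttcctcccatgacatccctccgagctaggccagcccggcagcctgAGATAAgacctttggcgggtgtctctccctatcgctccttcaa
Adgrl4: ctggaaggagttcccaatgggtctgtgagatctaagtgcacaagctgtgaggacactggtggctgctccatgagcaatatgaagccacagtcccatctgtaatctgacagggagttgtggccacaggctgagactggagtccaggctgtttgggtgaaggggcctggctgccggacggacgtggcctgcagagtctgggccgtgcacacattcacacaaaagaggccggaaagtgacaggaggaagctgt
The word was in 16.6% of the 32851 promoter windows of 250 bases in the table. Counted by gene, it was in 18.8% of 27025 genes. It was in 13 of 31 matched genes of the red cell effector list, 7 of 18 erythroid transcription factors and 4 of 37 stem cell genes. A match is a description of the letters and not a measured site.

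The genes that red cells use were higher in CMP as a group. Of 46 members of the red cell effector and heme synthesis list in the files, 39 passed the low-count filter, and all 39 had values above 0, with a median log2 fold change of 2.36. Some, among them Epor, Kel, Atp1b2, Add2 and Cited4, passed only through the CMP libraries, where they were high. The filter thus fixed their sign and favoured a lack of overlap and a call. The count of 39 and the counts of the list below are not support from these members. Epor had 0, 0 and 152 counts in LSK. The CMP libraries lay above the LSK libraries without overlap in 33 of the 39, against 8.37% of all genes tested. DESeq2 called 28 of the 39, against 0.912% of all genes, and the 12-library fit called 8, against 0.134%. The summed level of the list was 5993 to 11720.3 CPM in the CMP libraries, highest in library 2, and 1758 to 2209 CPM in LSK. Without CMP library 1, 41 of 42 tested members were above 0 and 37 were free of overlap, and without CMP library 7 it was 39 of 39 and 34. The shares of all genes higher without overlap were then 13.5% and 12.3%.

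Car1, a carbonic anhydrase of early red cell precursors (chr3:14766216-14808368, minus strand), was at 853, 1596 and 365 CPM in CMP and 29.4, 59.4 and 42.9 CPM in LSK. The lowest CMP library, 7, was still above the highest LSK library (4.41 ± 0.58 (SE), adjusted p = 0.185 by edgeR, 1.52e-19 by DESeq2 and 0.032 in the 12-library fit). Car2, the major red cell carbonic anhydrase, was at 2159, 4158 and 2223 CPM in CMP and 741, 656 and 1058 CPM in LSK (1.78 ± 0.30, adjusted p = 0.22 by edgeR and 0.0105 in the 12-library fit). Epor, the erythropoietin receptor gene, was at 33.7, 74.5 and 41.3 CPM in CMP and at 0, 0 and 3.01 CPM in LSK, where 2 libraries had no count. Surface proteins of red cells went the same way. Ermap, which encodes an erythroid membrane protein, was at 91.3, 371 and 234 CPM in CMP and 1.59, 0.479 and 9.35 CPM in LSK (5.79 ± 1.06, edgeR adjusted p = 0.266). Rhd was at 108, 236 and 102 CPM in CMP and 0.834, 4.79 and 8.12 CPM in LSK (4.98 ± 0.84, edgeR adjusted p = 0.213). The water channel gene Aqp1 was at 73.0, 293 and 151 CPM against 2.35, 13.1 and 12.8 CPM. In none of these did the groups overlap, and CMP library 2 held the highest value of each. The amino acid transporter gene Slc38a5 had a log2 fold change of 6.73 ± 1.08 (19.1, 99.4 and 57.4 CPM against 0.227, 0.16 and 1.07 CPM).

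Within heme synthesis, 2 enzymes were higher and the first red cell enzyme was not. Alad, the second enzyme of the pathway, was at 149.5, 196 and 102 CPM in CMP and 53.7, 50.9 and 49.0 CPM in LSK (1.52 ± 0.30, edgeR adjusted p = 0.294). Cpox, a later one, was at 113, 286 and 140.4 CPM against 28.1, 7.50 and 37.8 CPM. Blvrb, a biliverdin reductase of red cells, was at 94.4, 249.5 and 136 CPM against 11.7, 7.50 and 23.5 CPM. Alas2, the red cell form of the first enzyme, overlapped between the groups (25.3, 31.6 and 4.02 CPM against 4.40, 27.5 and 23.2 CPM, 0.13 ± 0.99). The globins were at the floor. Hbb-bs did not exceed 1.03 CPM in any of the 6 libraries, and Hba-a1, Hbb-bt, Hbb-b1 and Hbb-b2 had no count. Globin copies are nearly identical, so that reads that fit several of them may not have been counted.

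**Figure D2:**
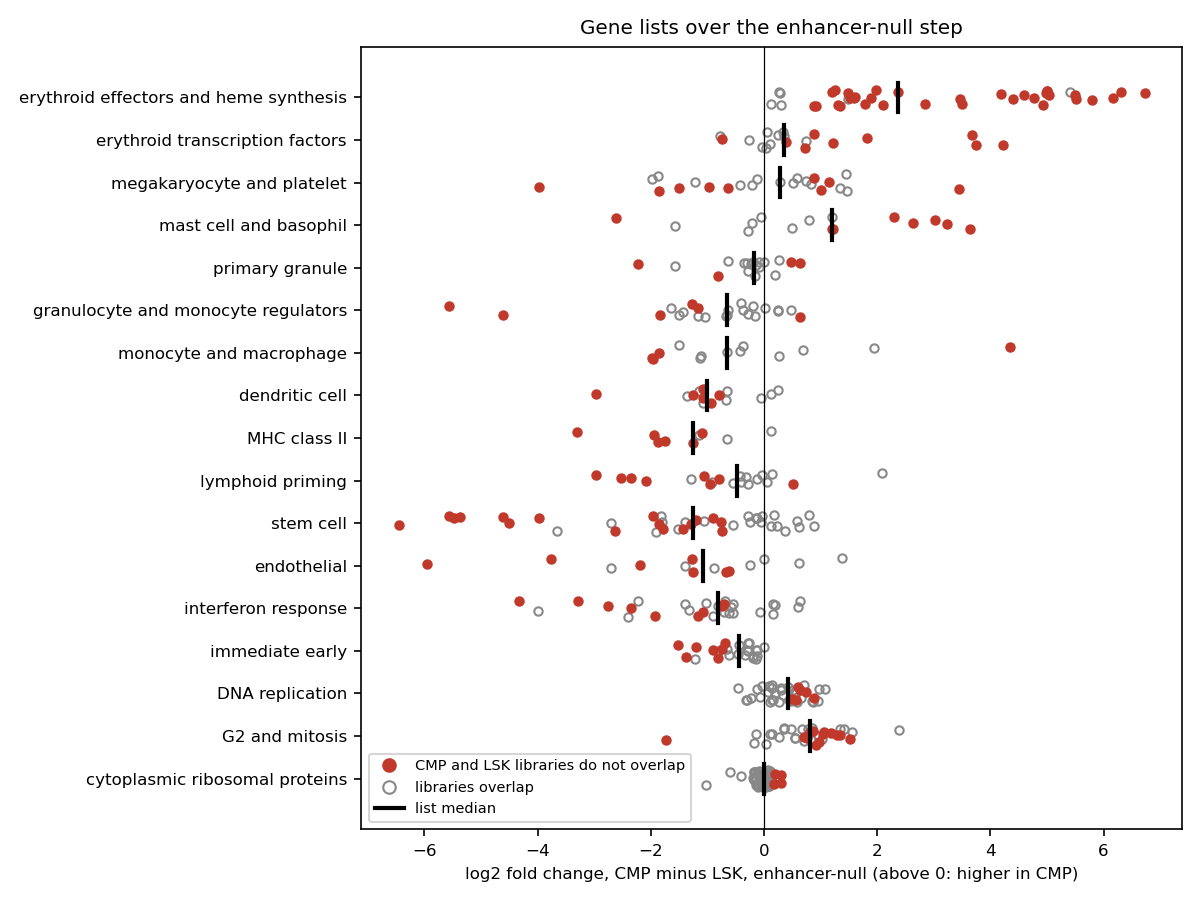
Log2 fold change, CMP minus LSK, of each tested member of 17 gene lists in enhancer-null mice. Red points are genes whose CMP and LSK libraries do not overlap, open points are genes whose libraries overlap, and the bar is the list median. All 39 red cell effectors lie right of 0 with a median of 2.36, and the stem cell list has a median of -1.25. Some members passed the low-count filter only through the cell type where they were high, which fixed their sign.

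Several genes of mast cells and basophils were also higher in CMP. Of 25 members 15 passed the filter, of which 10 were above 0 and 5 below, with a median of 1.20. In 7 the CMP libraries lay above the LSK libraries without overlap, against 8.37% of all genes tested, and in 1 below, against 8.44%. The 1 below was Mitf, at 0, 5.21 and 0 CPM in CMP and 11.8, 10.7 and 9.83 CPM in LSK. The LSK libraries alone carried it past the filter, which fixed its sign. Scin, an actin-severing protein, was at 753, 635 and 731 CPM in CMP and 119, 221 and 85.9 CPM in LSK (2.29 ± 0.34 (SE), adjusted p = 0.185 by edgeR and 3.14e-09 by DESeq2). The 3 CMP libraries lay close together and well above LSK. Cpa3, the mast cell carboxypeptidase, was at 1091, 906 and 1347 CPM in CMP and 551, 576 and 298 CPM in LSK (1.20 ± 0.27, edgeR adjusted p = 0.336). Gzmb, a granzyme gene, was at 655, 469 and 276 CPM in CMP, highest in library 1, and 23.4, 77.3 and 10.9 CPM in LSK (3.64 ± 0.74, edgeR adjusted p = 0.3). Il1rl1, the interleukin 33 receptor gene, was at 41.7, 65.6 and 23.8 CPM against 4.17, 6.71 and 5.19 CPM, and the steroid enzyme gene Cyp11a1 at 43.2, 20.7 and 37.8 CPM against 0.91, 5.91 and 3.86 CPM. The groups did not overlap in either. Of genes known from mature mast cells and basophils, some were seen and others were not. Mcpt8, a basophil protease gene, overlapped at 10.5, 3.39 and 6.07 CPM in CMP and 0.303, 8.78 and 2.24 CPM in LSK. Fcer1a, a subunit of the IgE receptor, was at 19.7, 8.80 and 15.2 CPM against 0, 3.19 and 3.70 CPM, without overlap. Ms4a2, another subunit, was at 16.5 CPM in CMP library 2 and at or under 0.581 CPM in the other 5. Among the other protease genes Mcpt4 had no count in any library, and Cma1, Tpsb2, Tpsab1 and Prss34 stayed at or under 0.872 CPM. Without CMP library 1 the list median was 0.69 with 10 of 15 above 0, and without CMP library 7 it was 1.53 with 13 of 17.

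The platelet list did not lean one way. Of 30 members 23 passed the filter, of which 12 were above 0 and 11 below, and the CMP libraries lay above LSK without overlap in 4 and below in 5, against 8.37% and 8.44% of all genes tested. Cd63, a granule membrane protein, was at 430.2, 296 and 285 CPM in CMP and 167, 181 and 145.5 CPM in LSK (1.01 ± 0.21, edgeR adjusted p = 0.308). Slc14a1, a urea transporter, was at 216, 192 and 132 CPM against 104, 60.4 and 73.7 CPM. Without CMP library 7 the median of the list changed sign, from 0.28 to -0.21.

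Stem cell genes were lower in CMP. Of 49 members 40 passed the filter, of which 32 were below 0 and 8 above, with a median of -1.25, and in 17 the CMP libraries lay below the LSK libraries without overlap, against 8.44% of all genes tested. Some, among them Hoxa7 and Cdkn1c, passed the filter only through LSK, which fixed their sign and favoured a lack of overlap. The counts of the list are not support from these members. No member lay above without overlap. Hlf, a transcription factor of stem cells, was at 0.465, 0.492 and 7.49 CPM in CMP and 29.3, 49.2 and 111 CPM in LSK (-4.50 ± 1.25, edgeR adjusted p = 0.47). Meis1, the partner of the Hox proteins, was at 57.5, 38.7 and 106 CPM in CMP and 229, 204 and 250.4 CPM in LSK (-1.79 ± 0.37, edgeR adjusted p = 0.306). Both were highest, among CMP, in library 7. Hoxa9 showed this most, at 0.232, 3.10 and 36.6 CPM in CMP against 88.5, 52.5 and 102 CPM in LSK. Nkx2-3, a homeobox gene, was at 0.232, 0.984 and 0.186 CPM in CMP and 71.8, 5.27 and 50.5 CPM in LSK (-6.45 ± 1.32, adjusted p = 0.306 by edgeR and 0.0189 in the 12-library fit). Slc35d3, a transporter gene outside the list, was at 0.116, 0.0492 and 0.124 CPM against 26.3, 4.95 and 44.2 CPM. The interferon-induced Ifitm3 was at 54.5, 54.2 and 48.0 CPM against 110.2, 134 and 170.0 CPM. Other stem cell genes did not part the groups. Adgrg1 was at 1699, 1317 and 1579.8 CPM in CMP and 1489, 1260.1 and 1239.9 CPM in LSK, and Angpt1, a ligand of the Tie2 receptor, at 772, 346 and 538 CPM against 426, 402 and 433 CPM. Without CMP library 1, 36 of 44 members were below 0 and 20 free of overlap, and without CMP library 7 it was 36 of 44 and 22. The shares of all genes lower without overlap also rose, to 14.3% and 14.5%.

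Adgrl4, an adhesion receptor known from endothelium and present in LSK (chr3:151437887-151545086, plus strand), was at 257, 127 and 199 CPM in CMP libraries 1, 2 and 7 and 855, 635 and 1120.5 CPM in LSK. Its groups were far apart and CMP library 2 was lowest. The log2 fold change was -2.19 ± 0.30 (SE), with an adjusted p of 0.185 by edgeR, 1.76e-10 by DESeq2 and 0.0105 in the 12-library fit. Of 14 tested genes of the endothelial list 11 were below 0 and 3 above, with a median of -1.07, and in 7 the CMP libraries lay below LSK without overlap, against 8.44% of all genes tested. There were 14 of 17 below 0 without CMP library 1 and 14 of 16 without CMP library 7, with 8 free of overlap in both, against 14.3% and 14.5% of all genes. Emcn, at 0, 0.590 and 0 CPM in CMP, passed the filter only through LSK, which fixed its sign and lack of overlap. Tie1, Tek, Esam and Eng were also counted among the stem cell genes, so the endothelial counts are not separate from those. Egfl7 was at 94.8, 33.9 and 36.0 CPM in CMP and 151, 104 and 136 CPM in LSK, and Gimap6 at 114, 38.9 and 83.1 CPM against 164, 146 and 243 CPM. The summed level of the list was 652 to 1252 CPM in CMP and 1907 to 2574 CPM in LSK. The defining endothelial genes were divided. Cdh5, Sox17, Mmrn1 and Clec14a had no count in any of the 6 libraries, and Flt1, Sox18 and Cldn5 stayed at or under 0.495 CPM. Pecam1, which blood progenitors also express, was at 113 to 189 CPM in the 6 libraries, and Plvap at 76.3, 14.5 and 22.3 CPM in CMP and 17.3, 14.1 and 11.3 CPM in LSK. Kdr had 243 counts in CMP library 7 and at most 1 in each of the other 5. The part of other cell types in these values was not tested.

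**Figure D3:**
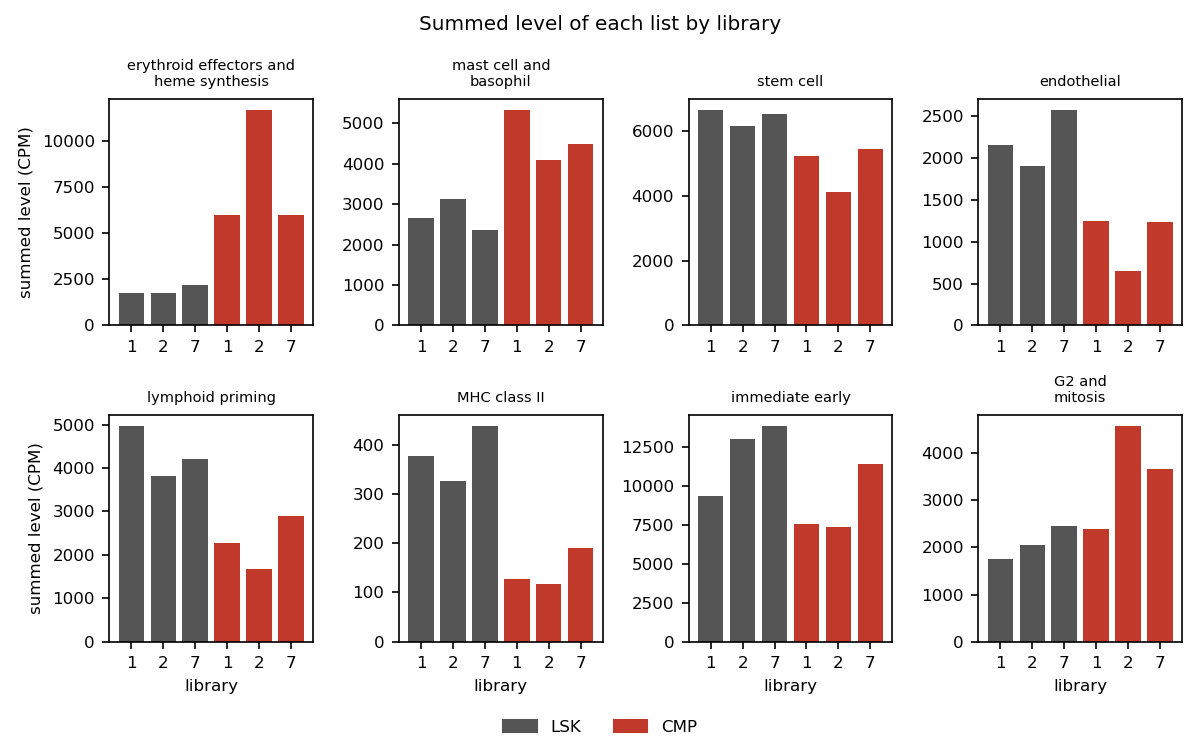
Summed level (CPM) of 8 gene lists in each enhancer-null library, LSK in grey and CMP in red. The red cell sum is highest in CMP library 2 (11720.3 CPM), and the stem cell, endothelial, lymphoid and MHC class II sums are lower in every CMP library than in any LSK library.

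Genes of the lymphoid and antigen-presenting programmes were lower in CMP. Of 20 tested lymphoid priming genes 16 were below 0 and 4 above, and in 7 the CMP libraries lay below LSK without overlap and in 1 above, against 8.44% and 8.37% of all genes tested. The split was 15 below and 7 above without CMP library 1, and 18 and 3 without CMP library 7. Flt3, the cytokine receptor of lymphoid-primed progenitors, was at 87.4, 24.2 and 96.7 CPM in CMP and 621, 441 and 527 CPM in LSK. CMP library 2 was lowest (-2.97 ± 0.48 (SE), adjusted p = 0.196 by edgeR, 8.87e-09 by DESeq2 and 0.0151 in the 12-library fit). Il12a, a subunit of interleukin 12, was at 28.0, 12.7 and 18.2 CPM in CMP and 131, 96.1 and 105 CPM in LSK (-2.53 ± 0.38, adjusted p = 0.185 by edgeR and 0.0154 in the 12-library fit). Dntt, the lymphoid DNA polymerase gene, varied widely among CMP, at 158, 43.9 and 504 CPM against 1436, 739.9 and 1354 CPM in LSK. Of 14 tested dendritic cell genes 12 were below 0, with a median of -1.01. Among them Flt3 and Tcf4 are also lymphoid priming genes here, and Cd74, H2-Aa, H2-Ab1 and H2-Eb1 also MHC class II genes. The counts of these lists are thus not separate. Of 9 tested MHC class II genes 8 were below 0, with a median of -1.26, and 6 lay lower without overlap, against 8.44% of all genes tested. H2-DMb2, at 0, 0.492 and 0 CPM in CMP, passed the filter only through LSK, which fixed its sign and lack of overlap. H2-Ob was at 31.6, 29.0 and 62.1 CPM in CMP and 149.6, 131 and 160.2 CPM in LSK, and H2-DMa at 27.8, 33.6 and 52.9 CPM against 115, 99.5 and 165 CPM. Both encode parts of the machinery that loads peptides, or regulates the loading, onto class II molecules.

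Granulocyte and monocyte genes did not lean to CMP as the red cell genes did. Of 18 tested primary granule genes 5 were above 0 and 13 below, with a median of -0.18, and 2 lay above and 2 below LSK without overlap, near the 8.37% and 8.44% of all genes tested. Leaving out CMP library 1, 5 of 19 lay below, against 14.3% of all genes. Mpo, myeloperoxidase, was at 2691, 2369.8 and 3258 CPM in CMP and 1765, 2281 and 1198 CPM in LSK, above without overlap by a narrow margin (0.64 ± 0.23, edgeR adjusted p = 0.611). Ctsg, a granule protease gene, overlapped (22.2, 11.9 and 13.3 CPM against 30.6, 19.3 and 6.54 CPM). Elane, neutrophil elastase, did not pass the filter on low counts, at 0.116, 11.8 and 0.124 CPM in CMP and 0.303, 11.5 and 0.0198 CPM in LSK. The inhibitor gene Serpinb1a was lower in CMP (238, 237 and 290.1 CPM against 530.4, 366 and 423 CPM, -0.81 ± 0.18, edgeR adjusted p = 0.336). Of 23 tested granulocyte and monocyte regulators 18 were below 0 and 5 above, with a median of -0.66. Gfi1, a repressor needed for granulocyte development, was at 0.116, 1.77 and 0 CPM in CMP and 18.9, 60.4 and 13.7 CPM in LSK. It passed the filter only through LSK, which fixed its sign. The growth factor receptor gene Csf3r was at 54.2, 29.3 and 53.8 CPM against 118, 80.8 and 126 CPM, without overlap, and Csf1r at 4.88, 22.9 and 23.1 CPM against 80.1, 39.8 and 22.4 CPM, with overlap. Among the other CEBP genes, Cebpb (458, 176 and 159 CPM against 464, 369 and 202 CPM), Cebpd (21.7, 12.8 and 7.30 CPM against 16.8, 11.8 and 21.2 CPM) and Cebpg (7.90, 71.7 and 34.8 CPM against 75.9, 95.6 and 62.5 CPM) overlapped. Cebpe stayed at or under 0.639 CPM. Of 13 monocyte and macrophage genes 9 were below 0, and Lyz2, lysozyme, was at 10.9, 23.0 and 41.5 CPM against 93.8, 71.8 and 102 CPM.

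Genes of cell division were higher in CMP. Of 35 tested G2 and mitosis genes 32 were above 0 and 3 below, with a median of 0.82. In 12 the CMP libraries lay above LSK without overlap, against 8.37% of all genes tested, and in 1 below, against 8.44%. Cenpa, the centromere histone, was at 155, 193 and 144 CPM in CMP and 84.2, 62.4 and 66.4 CPM in LSK (1.19 ± 0.25, edgeR adjusted p = 0.306). Ube2c, a ubiquitin enzyme of mitotic exit, was at 84.5, 109.7 and 119 CPM against 36.8, 41.8 and 43.4 CPM (1.33 ± 0.28, adjusted p = 0.306 by edgeR and 0.0349 in the 12-library fit). Ccne1, the G1 cyclin E1, was at 67.1, 115 and 50.7 CPM against 7.43, 6.07 and 10.6 CPM. Of 39 DNA replication genes 32 were above 0, with a median of 0.42, and 6 lay higher without overlap, against the same 8.37%. Without CMP library 1, which had the lowest summed level of both lists among CMP, the counts without overlap were 20 of 35 for mitosis and 20 of 39 for replication, against 13.5% of all genes tested. Without CMP library 7 they were 16 of 35 and 6 of 39, against 12.3%, so that the replication count rests on which library is left out. Ribosomal protein genes had 36 values above 0 and 37 below, but without CMP library 1 it was 18 and 55, with 17 lower without overlap, against 14.3% of all genes.

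Immediate early genes, which respond quickly to signals from outside the cell, were lower in CMP. All 25 had values below 0, with a median of -0.45, and in 7 the CMP libraries lay below LSK without overlap, against 8.44% of all genes tested. Without CMP library 1, and likewise without CMP library 7, 24 of 25 were below 0. Fos was at 398, 596 and 975 CPM in CMP and 1091, 1773 and 1589 CPM in LSK (-1.20 ± 0.33, edgeR adjusted p = 0.446), and the nuclear receptor gene Nr4a1 at 133, 56.7 and 151 CPM against 324, 319.8 and 317 CPM. CMP library 7 had the highest summed level of the list among CMP (11394.8 CPM), within the LSK range of 9347 to 13877 CPM. Of 29 interferon response genes 24 were below 0, with a median of -0.81, and 9 lay lower without overlap, against the same 8.44%. Iigp1, at 0.116, 1.52 and 0.0619 CPM in CMP, passed the filter only through LSK, which favoured its place in both counts. Ddx58, the RNA sensor RIG-I, was at 17.3, 34.0 and 15.3 CPM in CMP and 112, 134 and 88.4 CPM in LSK (-2.34 ± 0.42, adjusted p = 0.246 by edgeR and 0.0274 in the 12-library fit). The chemokine gene Ccl4 was at 94.0, 71.4 and 142 CPM against 323, 391 and 404 CPM, and Socs3, a brake on cytokine signals, at 298, 234 and 251 CPM against 489, 592 and 531 CPM. The medians of the dendritic cell, MHC class II, regulator, monocyte and interferon lists were -1.50 to -0.71 without CMP library 1 and -1.005 to -0.73 without CMP library 7.

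The enhancer-null step was then set against the wild-type step, with no library in common, by the interaction in a fit of all 12 libraries. Of 12684 genes 37 passed an adjusted p of 0.05 (edgeR): the enhancer-null step lay above the wild-type step for 28 (0.221%) and below it for 9 (0.071%). By the same fit the wild-type step called 235 genes higher in CMP (1.85%) and 247 lower (1.95%). For all 28 the wild-type CMP libraries lay below the wild-type LSK libraries, and for all 9 they lay above. The same libraries picked these genes, so that this split is in part fixed by the choice. In enhancer-null mice 17 of the 28 and 5 of the 9 overlapped between CMP and LSK. Most genes overlapped over that step, with 8.37% above and 8.44% below without overlap, so these counts do not show a lost step. The count of 37 ranged from 12, without wild-type CMP library 6, to 107, without enhancer-null CMP library 2, when 1 library was left out, and was 17 without enhancer-null CMP library 1.

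Granulocyte and monocyte genes were among the 9. For Mpo the step was 0.67 in enhancer-null and 3.63 in wild-type mice, where its level was 4835, 4456 and 4123 CPM in CMP and 442, 306 and 337 CPM in LSK (difference -2.96 ± 0.30 (SE), edgeR adjusted p = 0.000733). Irf8, a monocyte and dendritic cell factor, was at 84.1, 78.7 and 70.8 CPM in enhancer-null CMP and 146, 165 and 56.6 CPM in LSK, and at 501, 596 and 395 CPM and 26.7, 54.8 and 65.0 CPM in wild type (difference -4.00 ± 0.55, edgeR adjusted p = 0.00882). For Csf1r the difference was -5.77 ± 0.89 (edgeR adjusted p = 0.0183) and for Ctsg -5.10 ± 0.93 (edgeR adjusted p = 0.0458). Atp8b4, a putative lipid flippase, differed by -3.43 ± 0.64 (edgeR adjusted p = 0.0495). Tcf7, a factor best known from T cells, had the largest difference of the 9, -6.70 ± 0.55 (edgeR adjusted p = 0.000218). Its level was 162, 156 and 131 CPM in enhancer-null CMP and 185, 229 and 91.0 CPM in enhancer-null LSK, against 14.0, 20.8 and 17.0 CPM in wild-type CMP and 0.199, 0.21 and 0.125 CPM in wild-type LSK, so that the wild-type step started from near the floor.

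The 28 held stem cell, mast cell and early response genes that were lower in wild-type CMP than in wild-type LSK. In enhancer-null mice the CMP libraries lay above LSK without overlap for 5 of the 28 and below for 6, among the latter Junb and Ltb. Of all genes tested over that step, 8.37% lay above and 8.44% below. Cd63 was at 49.6, 22.5 and 26.7 CPM in wild-type CMP and 209, 251 and 168 CPM in wild-type LSK, opposite to the enhancer-null order (difference 3.70 ± 0.42, edgeR adjusted p = 0.00203). Gata2 was at 51.2, 51.8 and 79.0 CPM in wild-type CMP and 209, 310.3 and 195 CPM in LSK (difference 3.22 ± 0.51, edgeR adjusted p = 0.02). Angpt1 (3.23 ± 0.44), Adgrg1 (1.98 ± 0.24) and Ifitm1, an interferon-induced membrane protein (3.04 ± 0.28), also lay above, with edgeR adjusted p of 0.00864, 0.0034 and 0.00043. Ctla2b, a protease inhibitor, had the largest difference of the 28 (4.20 ± 0.60, edgeR adjusted p = 0.0105). The others named by rule were Lax1, an adaptor of lymphocytes (3.85 ± 0.72), Slc18a2, a monoamine transporter of mast cells (3.46 ± 0.64), and the lymphotoxin gene Ltb (3.41 ± 0.63). Nfe2 (1.52 ± 0.26) and the AP-1 gene Junb (1.54 ± 0.28) passed as well.

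The red cell genes that marked the enhancer-null step did not pass this test. Klf1 was at 198, 219.8 and 181 CPM in wild-type CMP and 6.55, 0.14 and 8.57 CPM in wild-type LSK, with a wild-type step of 5.28 (difference -1.04 ± 1.08 (SE), edgeR adjusted p = 0.923). The differences were -1.18 ± 0.94 for Car1 (edgeR adjusted p = 0.86), -0.49 ± 0.40 for Gfi1b (0.869) and 0.54 ± 0.39 for Adgrl4 (0.832). Their errors leave room for steps that differ by more than 1 on the log2 scale in Klf1 and Car1, so that this does not show the steps to be alike. Of 41 red cell effectors tested in the 12 libraries 0 were called in either direction, but with 0.221% and 0.071% of all genes called this says little about them. Genes of the mast cell list differed both ways between the genotypes. Hdc was at 22.7, 14.7 and 15.6 CPM in wild-type CMP and 0.581, 1.18 and 1.49 CPM in enhancer-null CMP. Mcpt8 overlapped between the genotypes, at 45.8, 8.60 and 0.921 CPM in wild-type CMP and 10.5, 3.39 and 6.07 CPM in enhancer-null CMP. Scin, Gzmb and Cpa3 lay higher in every enhancer-null than in every wild-type library. Scin was at 2.91, 2.74 and 0.921 CPM in wild-type CMP and 1.96, 0.629 and 0.438 CPM in wild-type LSK, and Gzmb at 1.94, 0.391 and 0.0658 CPM and 1.28, 0.35 and 0.375 CPM, and Cpa3 at 64.1, 29.7 and 31.1 CPM and 4.88, 13.2 and 5.94 CPM, all under the enhancer-null values given above. The steps of Scin and Gzmb did not pass (1.30 ± 0.71, edgeR adjusted p = 0.732, and 3.39 ± 1.23, 0.479).

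**Figure D4:**
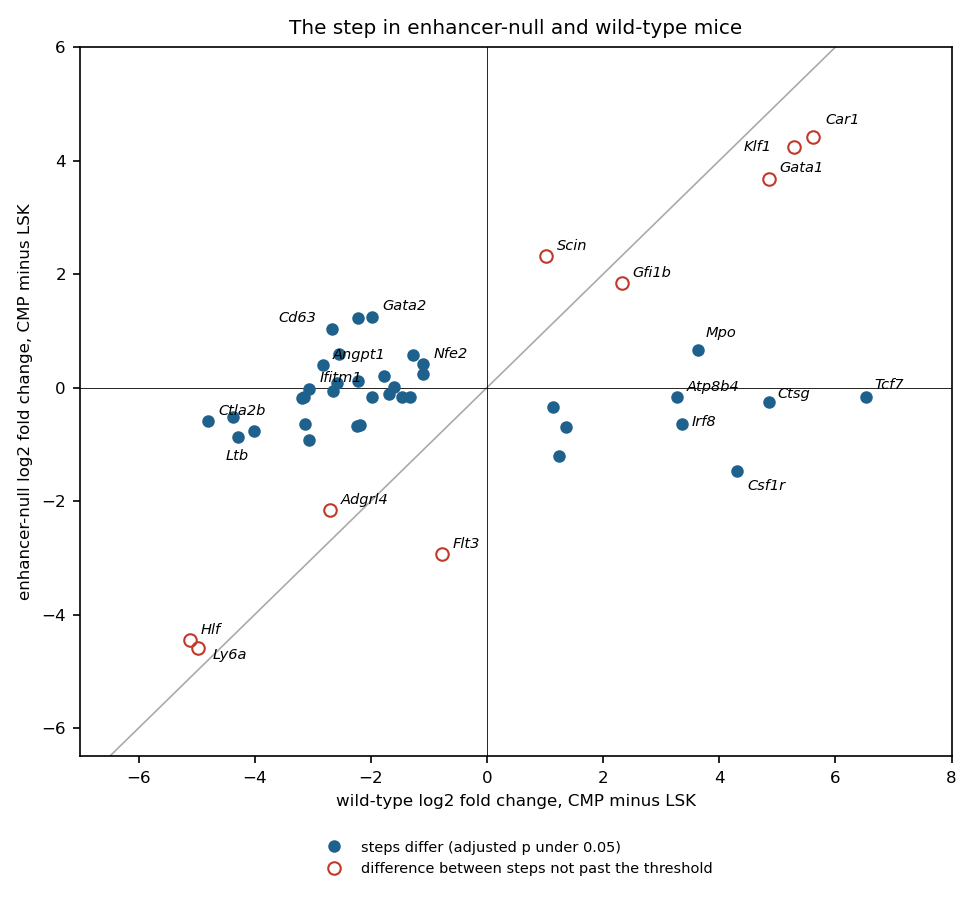
Log2 fold change, CMP minus LSK, in enhancer-null mice (vertical) against wild-type mice (horizontal), from the fit of all 12 libraries. Filled points are the 37 genes whose steps differ (edgeR adjusted p under 0.05), open points are genes whose difference did not pass, and the grey diagonal marks equal steps. Tcf7, Mpo, Csf1r and Irf8 lie far right near or under 0, while Klf1, Car1 and Adgrl4 lie near the diagonal.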

How the data were processed

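Total RNA of sorted cells was made into cDNA with a kit for very small samples, and 75 bp were read from both ends of the fragments, per the labels' protocols. Each library has 1 deposited table of raw counts by gene symbol. The tools were HTSeq, Bowtie, TopHat and TopHat2 2.0.4, with the mm10 build, per the submitters' processing notes. The sources used here give no annotation, counting mode or strand, so overlapping genes on opposite strands and near-identical copies are uncertain. Rows that name no gene (37.2% to 40.9% of the counts of the 6 libraries) were left out. Reads carry no molecular identifiers, and 3 counts correspond to 0.061 to 0.486 CPM, which covers counting error only. Between replicates, chi-square was 43.0 to 181 per degree of freedom, so each library was 1 replicate.

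The 6 tables share 24420 symbols. For the fit with wild type, 22779 identical symbols and 604 older names (RefSeq, GRCm38.p6) were joined, because wild-type CMP library 6 lists 23456 symbols. Positions are from GENCODE M21 (GRCm38, which is mm10). Tests used edgeR 4.0.16 in R 4.3.3 (robust quasi-likelihood, TMM, default filter with a minimum count of 10) with Benjamini-Hochberg adjustment at 0.05 over all genes tested, and DESeq2 1.42.0 as an alternative. The SE is the size of the log2 fold change divided by the root of F. The tests were tried on simulated counts, where edgeR made few false calls and DESeq2 many. Other scalings, filters, a replicate block and leaving out each library were also tried.

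Named genes were the 4 markers Klf1, Car1, Gfi1b and Adgrl4, the CEBP family, 6 gate genes, and the 12 each way with the smallest p (a mean of at least 5 CPM, no overlap, a gene name). To these came up to 3 members past the threshold of each of 23 lists, or else the 1 with the smallest p, and 5 each way for the interaction. The other genes named were chosen after their values were seen. The members, lists and markers were chosen with earlier results of these data known.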

Additional observations from a re-analysis of the deposited data

Results flagged for a closer look

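For 17 genes named in the report the step from LSK to CMP differed between the genotypes by the interaction test of edgeR (adjusted p under 0.05, 12 libraries). Values are the enhancer-null minus the wild-type log2 fold change.

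The enhancer-null step lay below the wild-type step for Tcf7 (-6.70), Csf1r (-5.77), Ctsg (-5.10), Irf8 (-4.00), Atp8b4 (-3.43) and Mpo (-2.96). It lay above for Ctla2b (4.20), Lax1 (3.85), Cd63 (3.70), Slc18a2 (3.46), Ltb (3.41), Angpt1 (3.23), Gata2 (3.22), Ifitm1 (3.04), Adgrg1 (1.98), Junb (1.54) and Nfe2 (1.52). Tcf7, Mpo, Cd63 and Ifitm1 passed in all 17 alternatives tried, with a highest adjusted p of 0.00676, 0.0253, 0.0253 and 0.00584. Lax1 and Ltb passed in 4 of 17, Atp8b4 and Nfe2 in 5, Junb in 6, and Ctsg and Slc18a2 in 7.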

How the results depend on the processing

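The count of genes called over the enhancer-null step was 0 with the main settings and 0 with RLE scaling, library size only, a stricter filter, no robust estimation and each library left out (range 0 to 0). It was 202 by DESeq2, 37 in the 12-library fit and 11 without a filter. The replicate block also gave 0. Same-numbered CMP and LSK libraries did not deviate together (r = 0.0727, -0.0179 and 0.0255), so the numbers were not taken to pair them, and 1 differently numbered pair had a higher r (0.157). Sex, read from Y-linked and Xist counts, did follow the numbers in both cell types. Whether same-numbered libraries share an animal is not labelled. The interaction count was 37 with the main settings, 186 by DESeq2, 34 with RLE scaling, 68 without a filter, 36 with identical symbols and 7 with the replicate block. Leaving out 1 library gave 12 to 107. Of 93 genes tested over the step, 13 values changed sign, each with a library left out, and the lowest adjusted p among them was 0.965. The ranges over all alternatives were -0.36 to 0.62 for Alas2, -0.45 to 0.10 for Atp8b4, -0.74 to 0.0336 for Cebpd, -0.67 to 0.25 for Ctsg, -0.27 to 0.0623 for Ifitm1, -1.29 to 0.29 for Il7r and -0.48 to 0.0876 for Tcf7. The cause was not tested. The scalings moved the median of all genes by less than 0.1. The shallowest library held 6170491 counts, and the number of libraries, 3 a group, also limits what the tests could detect. On simulated counts of this size edgeR recovered 6% and 30% of log2 changes of 1 and 2. For changes of 3 and 4 it recovered 80% and 82%. Why it called 0 genes in the measured counts was not tested.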

Other observations

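Other genes also parted enhancer-null CMP and LSK. Epdr1 was at 79.1, 83.2 and 61.3 CPM in CMP and 6.60, 1.76 and 4.75 CPM in LSK (4.05 ± 0.59 (SE), edgeR adjusted p = 0.185). Mns1 was at 88.2, 131 and 113 CPM against 15.4, 14.4 and 25.6 CPM (2.56 ± 0.37) and Ugcg, a glycolipid enzyme, at 342, 419 and 423 CPM against 151, 187 and 160.1 CPM (1.23 ± 0.18). Fam132a was at 159, 436 and 180.4 CPM against 24.6, 28.6 and 41.2 CPM, Ctse, a cathepsin, at 216, 376 and 154 CPM against 10.8, 23.9 and 30.3 CPM, and the glutaredoxin gene Glrx5 at 219, 263 and 217 CPM against 89.9, 96.3 and 103 CPM. Lower in CMP were the leukocyte membrane gene Cd53 (139.5, 106 and 128 CPM against 440.3, 443 and 278 CPM), Shisa5 (55.6, 57.7 and 70.5 CPM against 224, 139.7 and 203 CPM), Afap1l1 (74.6, 64.4 and 92.3 CPM against 249, 176 and 198 CPM) and Nfkbiz, an NF-kappa B inhibitor (55.1, 41.6 and 74.8 CPM against 162, 216 and 159 CPM).

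Single markers of other cells were seen where further genes of the same lists had no count. Pdgfrb, a stromal receptor gene, was at 99.3, 164 and 193 CPM in enhancer-null CMP and 289.6, 159 and 190.5 CPM in LSK, against 19.6, 40.8 and 34.0 CPM and 38.5, 9.02 and 29.9 CPM in wild type, while Col3a1, Pdgfra, Lum, Igfbp5 and Kitl had no count in the 6 enhancer-null libraries. Siglecf, an eosinophil marker, was at 159, 73.4 and 92.7 CPM in CMP and 58.8, 43.3 and 19.1 CPM in LSK, while Prg3, Ear6, Ear10 and Alox15 had no count. Cd72, a B cell marker, was at 0.348, 11.1 and 30.9 CPM against 44.2, 40.4 and 40.6 CPM, while Pax5 and Ms4a1 had no count, and of the late neutrophil genes Anxa1 was at 21.0, 12.1 and 22.6 CPM against 73.9, 37.0 and 78.3 CPM. Pdgfrb overlapped between CMP and LSK, Siglecf lay higher in CMP without overlap, and Cd72 and Anxa1 lay lower.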
